A study of Mus musculus with 2 samples.

Results

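The 10 genes followed here encode the heat shock and chaperone proteins *Hspa1a*, *Hspa1b*, *Hspa8*, *Hsp90aa1*, *Hsp90ab1*, *Hspe1*, *Hspd1*, *Dnajb1*, *Dnaja1* and *Hsph1*, taken by name from the 19960 genes listed for the mouse omentum. Of the 10, 9 were found by their symbol in the files and 1, *Hsp90aa1*, whose symbol was blank, by its Ensembl identifier. They were examined in every lymphoid and myeloid cell class that could be set by marker genes, in 1 library from wild-type (WT) mice and 1 library from *Postn*-DTR mice, each pooling omental cells from 3 mice. *Postn*-DTR mice are C57BL/6 mice, used as heterozygotes, with the receptor for diphtheria toxin (DT) inserted into *Postn*, and DT then kills stromal cells that express this gene. Mice of both genotypes received DT, and the omenta were taken 5 days later, so WT stands for toxin without the receptor and no library without toxin was analysed here. No sort of the cells is stated. With 1 library per group there was no replicate, so neither tests nor standard errors are given. The intervals given are exact 95% intervals that cover counting error only, and they say nothing about differences between mice.

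Heat shock proteins are chaperones, proteins that bind other proteins while they fold and keep them from aggregating. The HSP70 proteins hold short stretches of unfolded chains in a cycle that J-domain proteins (here DNAJA1 and DNAJB1) start and that exchange factors such as the HSP110 protein HSPH1 restart, and HSP90 takes over many of their clients, among them kinases and steroid hormone receptors. In mitochondria, HSP60 (*Hspd1*) and its lid HSP10 (*Hspe1*) form a folding chamber. *Hspa8* and *Hsp90ab1* are made in nearly every cell, whereas *Hspa1a* and *Hspa1b* are switched on by heat, oxidative damage and other protein-damaging stress through the transcription factor HSF1, which binds heat shock elements, repeats of the letters NGAAN in alternating orientation.

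The promoters are shown to look for such repeats, although the 10 genes were taken by name and not by this control. RefSeq windows of 250 bases before the start site (assembly GRCm38.p6) were at hand for 7 of the 10 genes, in 12 windows, and none was at hand for *Hspa8*, *Hsp90aa1* or *Hsp90ab1*. The letters GAANNTTC or TTCNNGAA, each its own reverse complement, were searched, and their matches are in capitals below, where overlapping matches form 1 run. The windows printed are those of the inducible HSP70 pair (*Hspa1a*, chr17:34972157-34972406, minus strand, and *Hspa1b*, chr17:34959239-34959488, minus strand), of *Hspe1* (chr1:55087898-55088147, plus strand), of *Hsph1* (chr5:149636337-149636586, minus strand) and of *Dnaja1* (chr4:40722218-40722467, plus strand).
Hspa1a: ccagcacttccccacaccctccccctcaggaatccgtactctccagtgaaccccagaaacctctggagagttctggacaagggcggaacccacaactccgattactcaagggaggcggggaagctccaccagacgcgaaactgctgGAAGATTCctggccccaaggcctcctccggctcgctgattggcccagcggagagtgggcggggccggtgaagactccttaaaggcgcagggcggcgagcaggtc
Hspa1b: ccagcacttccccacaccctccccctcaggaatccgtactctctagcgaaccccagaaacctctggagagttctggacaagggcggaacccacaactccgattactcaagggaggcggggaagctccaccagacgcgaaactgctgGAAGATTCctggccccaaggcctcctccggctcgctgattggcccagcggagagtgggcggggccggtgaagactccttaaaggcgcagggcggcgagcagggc
Hspe1: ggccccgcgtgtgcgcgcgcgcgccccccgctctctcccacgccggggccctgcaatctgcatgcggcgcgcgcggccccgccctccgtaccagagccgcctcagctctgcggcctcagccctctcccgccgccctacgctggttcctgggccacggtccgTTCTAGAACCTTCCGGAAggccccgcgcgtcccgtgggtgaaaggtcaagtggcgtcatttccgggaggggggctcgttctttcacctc
Hsph1: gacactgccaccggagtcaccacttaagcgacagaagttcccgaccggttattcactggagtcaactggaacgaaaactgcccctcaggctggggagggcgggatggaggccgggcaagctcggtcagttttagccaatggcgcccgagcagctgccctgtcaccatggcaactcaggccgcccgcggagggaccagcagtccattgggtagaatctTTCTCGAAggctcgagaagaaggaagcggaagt
Dnaja1: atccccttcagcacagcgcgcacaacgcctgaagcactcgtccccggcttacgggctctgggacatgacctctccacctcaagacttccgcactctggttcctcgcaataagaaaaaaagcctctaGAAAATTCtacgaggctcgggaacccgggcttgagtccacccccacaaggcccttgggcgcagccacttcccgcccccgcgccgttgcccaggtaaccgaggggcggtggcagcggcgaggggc

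The *Hspa1a* and *Hspa1b* windows were identical at 247 of 250 bases, and each held 1 match, GAAGATTC, which ended 96 bases before the start site. The *Hspe1* window held the run TTCTAGAACCTTCCGGAA, in which 3 matches overlap. This run lies between the RefSeq start site of *Hspe1* (55088148) and an *Hspd1* start site (55087932). These genes are a head-to-head pair on opposite strands whose annotated spans overlap. Of the *Hspe1* window, 215 bases (chr1:55087933-55088147) also lie in the promoter window of this *Hspd1* start site, read on the other strand. The window of the other *Hspd1* start site (55088243) held 0 matches. A match was found in 7 of the 12 windows, of all 7 genes but *Dnajb1*, against 12.8% of all 32851 promoter windows in the same table, and among the 12 the windows of neighbouring genes share most of their sequence. Searched on both strands, the longer form, in which 1 more unit (GAA after GAANNTTC, or TTC after TTCNNGAA) follows at the same spacing, was found among the 7 genes in the windows of *Hspe1* and *Hspd1* only, against 0.466% of all windows. A match of letters is a description of the sequence and not a binding site.

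After the limits on genes and mitochondrial UMIs, 8654 WT cells with 80152189 UMIs (unique molecular identifiers, 1 per captured transcript) and 5727 *Postn*-DTR cells with 81011216 UMIs remained, with medians of 5635 and 8472 UMIs per cell. Marker gates placed 6695 WT cells (77.4%) and 4657 *Postn*-DTR cells (81.3%) in 22 classes, 14 lymphoid and 8 myeloid. The class names stand for cells that passed a gate (B2-like, ILC2-like and so on), and the ending is left out below. Defining markers were found where the names call for them, with *Foxp3* in all Treg, *Il1rl1* in 70.1% of group 2 innate lymphoid cells (ILC2), *C1qa* in 92.8% of macrophages and *Xcr1* in 85.1% of type 1 conventional dendritic cells (cDC1), although genes used in a gate are high by construction. The plasma cell transcript *Jchain* gave UMIs in 25.5% to 53.6% of the cells of every class other than plasma cells and cycling plasmablasts, and a low share of cells with a UMI can come from such free RNA. The libraries shared 65 barcode sequences, and leaving out these cells changed no count given below for the pairs of class and gene.

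Throughout, the level of a gene in a class is the mean over cells of its UMIs per 10000 UMIs, and the ratio between libraries is the log2 of the *Postn*-DTR level over the WT level, with the interval taken from the summed UMIs. For 17 classes with at least 30 cells in each library there were 170 pairs of class and gene, and 124 of them had at least 100 UMIs over both libraries and were counted. A pair was called lower or higher at a fold of 1.5. The *Postn*-DTR level was lower in 31 of the 124 counted pairs (25%) and higher in 1 (0.806%), and the median ratio was -0.20. Over all genes that passed the same UMI minimum in the same classes, 10.5% of pairs were lower and 8.48% were higher, with a median of -0.02. Without *Hspa1a* and *Hspa1b*, 26 of 119 pairs (21.8%) were lower and 1 was higher. With every cell thinned to 1000 UMIs only 62 pairs kept enough UMIs, and 9 of them (14.5%) were lower and 4 (6.45%) higher, against 10.6% and 10.0% of all genes. Of these 62 pairs 7 had been called without thinning, so the thinned shares are over other pairs than the 124. The counted pair nearest to the limit on the called side was *Hspd1* in B1 B cells at -0.61, and nearest on the other side was *Hsph1* in naive CD4 T cells at -0.58.

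**Figure D1:**
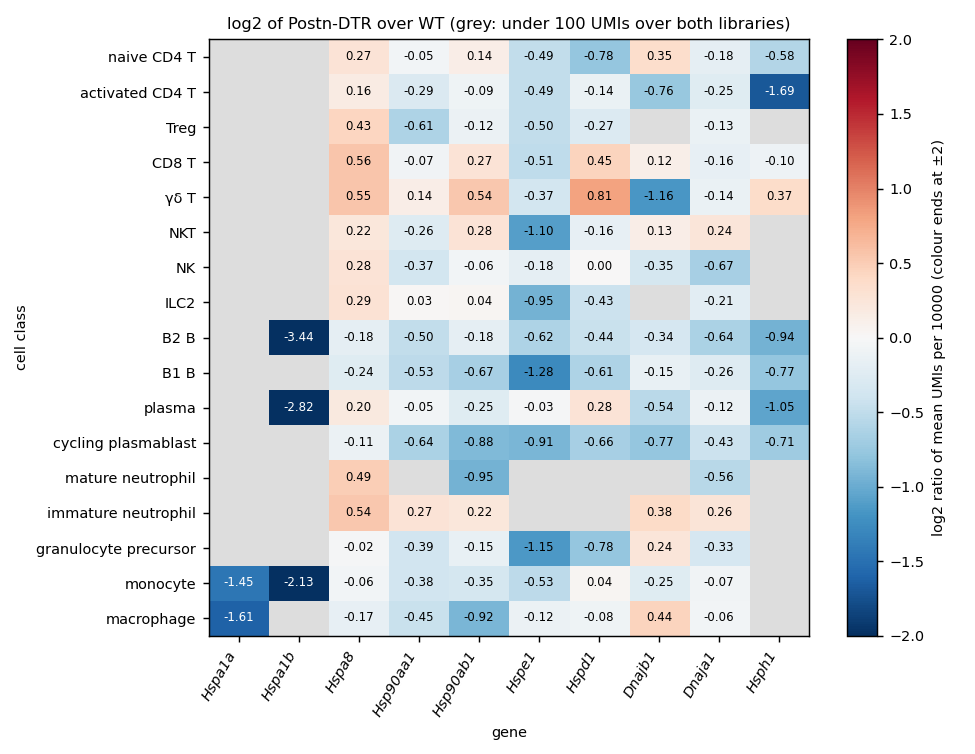
The log2 ratio of the *Postn*-DTR level over the WT level for each gene (columns) in each of the 17 compared classes (rows), blue where lower and red where higher in *Postn*-DTR, with grey cells for pairs under 100 UMIs. Blue cells dominate in the B lineage and in the *Hspe1* and *Hsph1* columns, while the *Hspa8* column runs from -0.24 to 0.56.

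The called pairs were not spread evenly over the lineages. In the B lineage (B2 B, B1 B, plasma cells and cycling plasmablasts), 16 of 34 counted pairs were lower and 0 were higher, and 32 of the 34 ratios were below 0 with a median of -0.54, while 11.0% and 8.56% of all genes there were lower and higher and their median was -0.03. In the 8 T, NK and ILC2 classes 8 of 58 pairs were lower and 1 was higher, near the 11.0% lower and below the 7.63% higher among all genes. Monocytes and macrophages together had 4 of 17 pairs lower and 0 higher (15.8% and 7.38% of all genes), and the 3 granulocytic classes had 3 of 15 lower and 0 higher (3.64% and 11.0%). The lineages were grouped after the values had been seen, and each is again 1 library against 1 library.

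Within the B lineage, cycling plasmablasts had 6 of 8 counted genes lower, *Hsp90aa1*, *Hsp90ab1*, *Hspe1*, *Hspd1*, *Dnajb1* and *Hsph1*, where 15.4% of all genes were lower and 8.37% higher. In B2 B cells 4 of 9 were lower (6.52% and 5.98% of all genes lower and higher), and in B1 B cells 4 of 8 (9.89% and 6.85%). Plasma cells had 2 of 9 lower (12.5% and 12.1%), *Hspa1b* and *Hsph1*. *Hspa1a*, under the UMI minimum there with 12 UMIs in WT and 67 in *Postn*-DTR, went the other way from *Hspa1b*. Its plasma cell level was 0.00834 and 0.0136 (ratio 0.71, 0.02 to 1.94 on sums). These transcripts share much of their sequence, as given below, so how the UMIs divide between *Hspa1a* and *Hspa1b* is uncertain. None of the counted genes was higher by 1.5-fold in these 4 classes. The share of UMIs from immunoglobulin genes in B1 B cells was 2.18% in WT and 18.3% in *Postn*-DTR. With totals that leave out immunoglobulin, T cell receptor, mitochondrial and ribosomal protein genes, 28 of the 124 pairs were lower and 1 was higher (9.81% and 8.87% of all genes). Of the 32 called pairs 5 then fell short of 1.5-fold, *Hspd1* in B1 B cells, *Hspe1* in B2 B cells and *Hsp90aa1*, *Hspd1* and *Hsph1* in cycling plasmablasts, and the other called pairs of B1 B cells stayed past it.

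The inducible HSP70 genes *Hspa1a* (ENSMUSG00000091971, chromosome 17, 34969190 to 34972156, minus strand) and *Hspa1b* (ENSMUSG00000090877, chromosome 17, 34956436 to 34959238, minus strand) are neighbours with 1 exon each. Of the 31-base windows of the *Hspa1a* transcript 63.8% also occur in *Hspa1b*, so reads from most of their length cannot tell them apart. Windows that occur in other genes make up 82.3% of the first 500 bases of *Hspa1a* and 81.1% of those of *Hspa1b*. In the last 500 bases they make up 0% and 2.98%. The sum of *Hspa1a* and *Hspa1b* is described in what follows. Their combined level was lower in *Postn*-DTR than in WT in 19 of the 22 classes, all but naive CD4 T cells, mature neutrophils and dendritic cells (DC), and no UMI was found in 5 *Postn*-DTR classes. Some of the 19 rest on few UMIs, with intervals that reach above 0, such as Treg (6 in WT and 0 in *Postn*-DTR), NK cells (4 and 1) and NKT cells (11 and 1). In B2 B, B1 B and plasma cells, monocytes and macrophages, each with at least 100 UMIs, the intervals lay below 0. No share of all genes was worked out for this count of classes. Over the lymphoid classes 694 UMIs were found in 5682 WT cells and 157 in 3339 *Postn*-DTR cells, and 6.09% and 2.37% of the cells held one. Over the myeloid classes there were 1069 UMIs in 1013 WT cells and 125 in 1318 *Postn*-DTR cells, in 27.8% and 4.25% of the cells. These sums also move with the make-up of the libraries. Plasma cells were 474 of the WT and 1683 of the *Postn*-DTR lymphoid cells. Their level was 0.0593 and 0.0209, on totals of which immunoglobulin genes gave 57.5% and 54.5%. Mature and immature neutrophils were 33 and 193 of the WT and 386 and 391 of the *Postn*-DTR myeloid cells, and cDC1 were 146 and 15.

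The highest shares before thinning were in myeloid cells of the WT library. A UMI of either gene was found in 56.2% of 146 WT cDC1 (47.7 to 64.4), 37.5% of 168 WT macrophages (30.2 to 45.3) and 37.3% of 169 WT monocytes (63 cells). In *Postn*-DTR the share was 10.4% of 260 macrophages (6.96 to 14.7) and 6.11% of 131 monocytes (2.67 to 11.7), and the intervals of the libraries did not overlap in either class. After each cell had been thinned to 1000 UMIs, 13.2% of WT and 4.29% of *Postn*-DTR macrophages and 10.1% of WT and 2.29% of *Postn*-DTR monocytes held a UMI, with 1 WT and 27 *Postn*-DTR macrophages left out as too shallow. The WT cDC1 were deeper, with a median of 19157 UMIs against 6233 in macrophages and 10246 in monocytes. After thinning, *Hspa1a* was found in 4.79% of WT cDC1, 8.98% of WT macrophages and 6.51% of WT monocytes. For *Hspa1b* these shares were 7.53%, 4.19% and 4.14%. The higher unthinned share of cDC1 thus does not rank these classes at equal depth. Immature neutrophils, near monocytes in depth in WT (medians of 9823 and 10246 UMIs) but shallower in *Postn*-DTR (5668 and 8948), held a UMI in 1 of 193 WT cells (0.518%) and 1 of 391 *Postn*-DTR cells (0.256%), so the shares in monocytes and macrophages of both libraries were above that level.

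**Figure D2:**
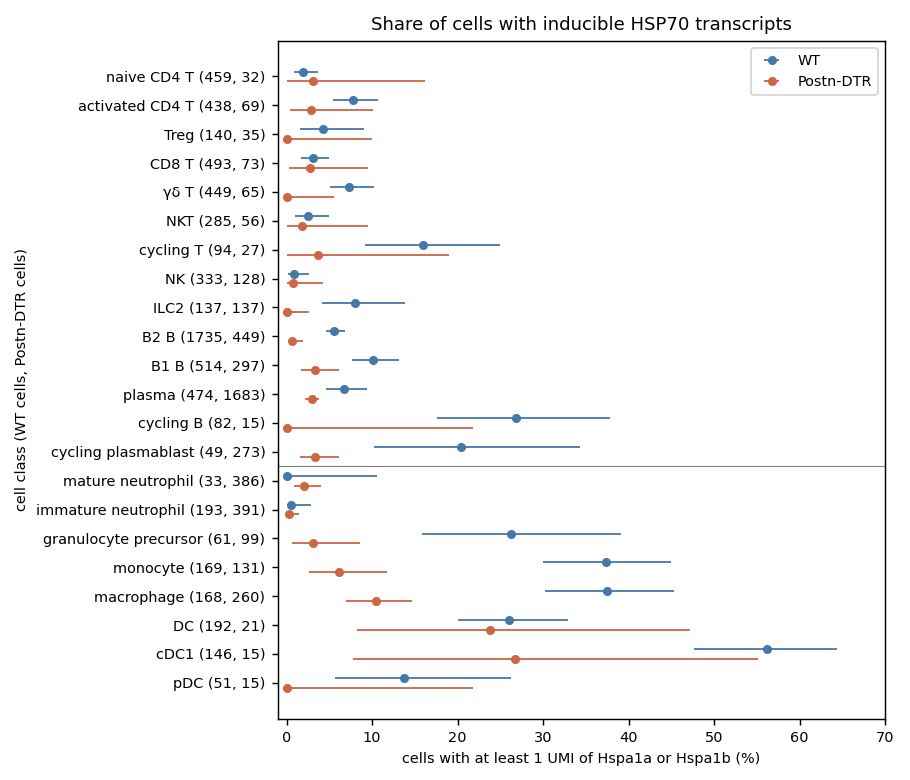
The share of cells with at least 1 UMI of *Hspa1a* or *Hspa1b* in each class (points, unthinned) with exact binomial 95% intervals (bars) for WT and *Postn*-DTR, with the numbers of cells beside each class. The WT points of cDC1, macrophages and monocytes stand at 56.2%, 37.5% and 37.3%, at median depths of 19157, 6233 and 10246 UMIs. Immature neutrophils lie near 0 in both libraries.

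In monocytes the sum was 373 UMIs in WT and 24 in *Postn*-DTR, and the levels were 1.11 and 0.318, a log2 ratio of -1.81 on the means over cells and -3.38 (-4.04 to -2.79) on summed UMIs. In macrophages it was 165 and 36 UMIs and levels of 1.70 and 0.464, a ratio of -1.87 on the means and -2.13 (-2.69 to -1.60) on sums. These UMIs came from few cells: the 17 WT monocytes with most of them held 68.6% of the sum, up to 31 in 1 cell, and 24 of the 169 held 5 or more. The WT granulocyte precursors held 67 UMIs, up to 18 in 1 cell, and the *Postn*-DTR ones 4, in 61 and 99 cells.

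B cells and T cells had lower levels throughout. In B2 B cells 183 UMIs were found in 1735 WT cells and 3 in 449 *Postn*-DTR cells, with a UMI in 5.59% (4.56 to 6.78) and 0.668% (0.138 to 1.94) of the cells, and the log2 ratio was -3.93 on the means. After thinning the shares were 1.56% and 0.223%. In B1 B cells the sums were 95 and 21 UMIs and the shares 10.1% and 3.37%, and in plasma cells 88 and 103 UMIs and 6.75% and 2.91%. In γδ T cells 77 UMIs in WT stood against 0 in *Postn*-DTR, where 0 of 65 cells, with 3 cells as the floor, allows a share of cells with a UMI of up to 4.62% and sets no limit on cells that express the genes. Taking 3 UMIs over the class as the floor and the WT sum without its counting error, the level was at least 3.95-fold lower, and with the error of both sums the log2 ratio had an upper end of -1.65. By the same floor the level was at least 3.45-fold lower in ILC2, with 13 UMIs against 0 and an upper end of -1.28, and at least 3.17-fold lower in cycling B cells, with 56 against 0. The exceptions, too, rest on few UMIs: the *Postn*-DTR DC held 40 UMIs in 21 cells, 33 of them in 1 cell, *Postn*-DTR naive CD4 T cells held 2 UMIs in all, and *Postn*-DTR mature neutrophils held 9.

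*Hspa8* (chromosome 9, 40800984 to 40810087, plus strand), the constitutive HSP70, did not share this pattern. It was counted in all 17 classes, passed 1.5-fold in 0 on the means over cells, and its median ratio was 0.22, with ratios from -0.24 to 0.56. On summed UMIs it was just past 1.5-fold upward in CD8 T cells (0.59, 0.49 to 0.68) and γδ T cells (0.59, 0.48 to 0.69). The same held for immature neutrophils (0.59, 0.47 to 0.71). All 8 T, NK and ILC2 classes had a higher *Postn*-DTR level, among them CD8 T cells (14 UMIs per 10000 in WT against 20.6, ratio 0.56) and γδ T cells (14.8 against 21.6, 0.55), and the intervals of the 8 ratios on summed UMIs lay above 0. It was lower in B2 B cells (12.3 and 10.9, -0.18) and B1 B cells (13.3 and 11.3, -0.24). Between classes of a library its level was highest in WT in cDC1 (27.3) and monocytes (24.3), in *Postn*-DTR in cycling T cells (25.2) and monocytes (23.3), and lowest in plasma cells and neutrophils, where it lay between 3.17 and 4.62. With totals without immunoglobulin, T cell receptor, mitochondrial and ribosomal protein genes, the plasma cell level was 11.4 in WT and 12.5 in *Postn*-DTR. The medians of *Hspa8* over classes were then 19.7 and 23.7. Of the 31-base windows of its transcript 77.2% occur in other genes, most of them in the gene model *Gm15459*, with 17.9% in the first 500 bases and 85.3% in the last 500. Its count thus depends on how such reads were assigned and on which end was read, on which the labels and the methods differ.

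**Figure D3:**
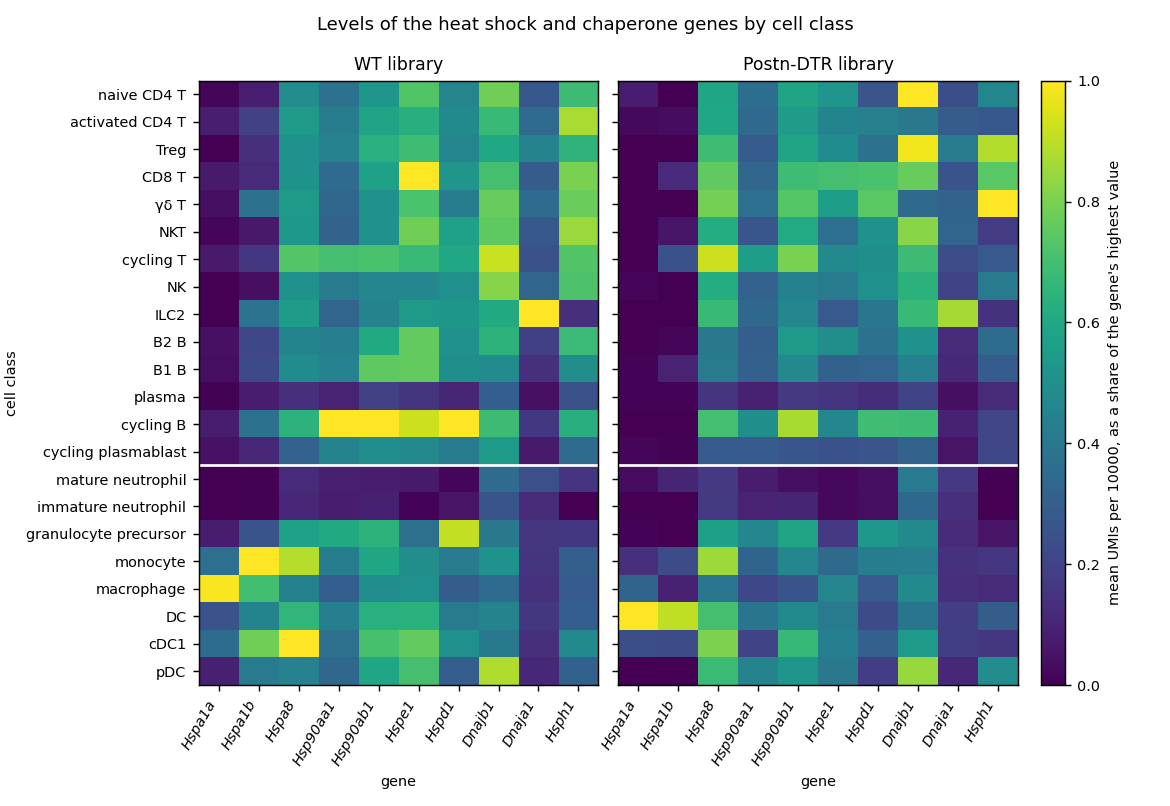
The level of each gene (columns) in each of the 22 classes (rows), WT on the left and *Postn*-DTR on the right, as a fraction of the highest level that gene reached in any class of either library. *Hspa1a* and *Hspa1b* stand out in a few myeloid classes, *Dnaja1* in ILC2 only, and *Hspa8* and *Hsp90ab1* are present in most classes.

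Of the J-domain proteins, *Dnaja1* (chromosome 4, 40722150 to 40737149, plus strand), a partner of cytosolic HSP70, was far higher in ILC2 than in any other class. ILC2 held on average 13.3 UMIs per 10000 in the WT library and 11.5 in the other, and the level was 5.97 and 5.45 in Treg, the next class, and 0.602 and 0.553 in plasma cells, the lowest class. The ILC2 level was 6.16 times the median of the other classes in WT and 5.21 times in *Postn*-DTR. On summed UMIs the ILC2 level was 12.2 (11.3 to 13.1) and 11.6 (10.6 to 12.6), from 717 and 541 UMIs, apart from the interval of every other class in both libraries. Of 137 ILC2 in each library 91.2% and 83.9% held a UMI, and after thinning to 1000 UMIs 59.1% and 57.7%, against 38.8% and 37.1% of Treg. ILC2 thus stood highest in both libraries, and the order of the classes next below it, with overlapping intervals between Treg, γδ T and NKT cells in *Postn*-DTR, was not resolved there. The gene overlaps *Smu1* on the opposite strand. Of the 31-base windows of the *Dnaja1* transcript 20.7% occur in other genes, 54.9% in its first 500 bases and 0% in its last 500.

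**Figure D4:**
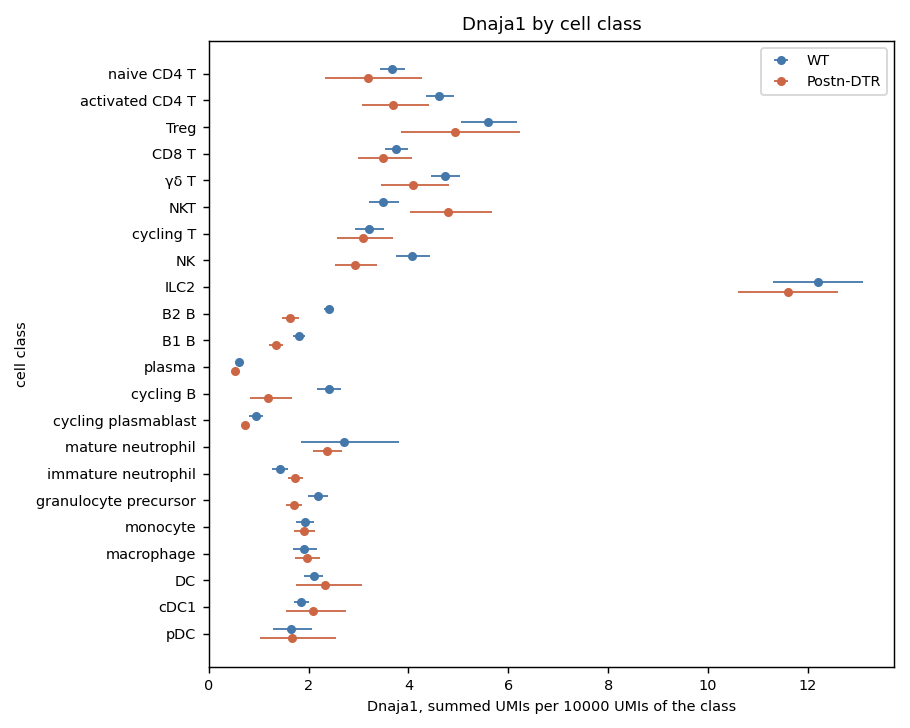
*Dnaja1* UMIs per 10000 UMIs of the class (summed over cells) with exact Poisson 95% intervals for each class in WT and *Postn*-DTR. ILC2 stand at 12.2 and 11.6, and no other class of either library exceeds 5.59.

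Between the libraries *Dnaja1* differed little in most classes, with a median ratio of -0.18 over 17 classes, 15 of them below 0, and 2 called lower. The called classes were NK cells (4.35 in WT and 2.73 in *Postn*-DTR, ratio -0.67) and B2 B cells (2.51 and 1.60, -0.64), and on summed UMIs both ratios fell short of 1.5-fold, at -0.48 (-0.73 to -0.24) and -0.56 (-0.73 to -0.40). In NKT cells the level was 3.66 in WT and 4.33 in *Postn*-DTR.

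*Dnajb1* (chromosome 8, 83608193 to 83612653, plus strand), an HSF1-responsive J protein that directs HSP70 to aggregates, was lower by 1.5-fold in 3 of 14 counted classes and higher in 0. Its level was 1.09 UMIs per 10000 in WT γδ T cells and 0.490 in those of *Postn*-DTR (ratio -1.16, -2.04 to -0.53 on sums), 0.963 and 0.570 in activated CD4 T cells (-0.76, -1.94 to -0.33) and 0.769 and 0.450 in cycling plasmablasts (-0.77, -0.99 to -0.44). In activated CD4 T cells the ratio was -0.37 with clusters in place of gates. In the other 11 classes it went either way, from -0.54 in plasma cells to 0.44 in macrophages, where the ratio of summed UMIs was -0.22 (-0.72 to 0.28). Over the 22 classes the *Postn*-DTR level was below WT in 11 and above in 11.

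*Hsph1* (chromosome 5, 149614287 to 149636376, minus strand), the HSP110 exchange factor, was counted in 8 classes, in 5 of which it was lower. Activated CD4 T cells held 0.619 UMIs per 10000 in the WT library and 0.192 in the other (ratio -1.69, -2.81 to -0.39 on sums, from 135 and 7 UMIs), and the levels were 0.483 and 0.252 in B2 B cells (-0.94, -1.40 to -0.54) and 0.175 and 0.0848 in plasma cells (-1.05, -1.36 to -0.88). B1 B cells (-0.77) and cycling plasmablasts (-0.71) were the other two, and they fell short of 1.5-fold, the first with clusters in place of gates (-0.23) and the second with the top cell left out (-0.58). The *Postn*-DTR level was below WT in 18 of 22 classes, and γδ T cells, with 0.548 and 0.709, were the counted exception. In immature neutrophils 1 UMI was found in each library, and no stretch of 31 bases of its transcript occurs in another gene.

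The HSP90 genes did not move alike. *Hsp90ab1* (chromosome 17, 45567775 to 45573271, minus strand), the constitutive form, was lower by 1.5-fold in 4 of 17 classes. These were, with WT first, macrophages (14.6 and 7.71 UMIs per 10000, ratio -0.92, -1.14 to -0.92 on sums), cycling plasmablasts (14.6 and 7.95, -0.88), B1 B cells (22.3 and 14, -0.67) and mature neutrophils (2.42 and 1.25, -0.95, from 36 UMIs in 33 WT cells and 142 in 386 *Postn*-DTR cells). With clusters the ratio in B1 B cells was -0.54. In γδ T cells it was 15.1 and 21.9, a ratio of 0.54 that fell short of 1.5-fold on the means over cells. On summed UMIs the γδ T cell ratio was 0.60 (0.50 to 0.71), past 1.5-fold. In monocytes the ratio was -0.35 on the means over cells and 0.09 (0.03 to 0.15) on summed UMIs, so its direction there depends on how the cells are weighted. Its highest level was in cycling B cells of both libraries (29.7 and 25.8), and its lowest in mature neutrophils.

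*Hsp90aa1* (chromosome 12, 110690605 to 110702728, minus strand), the inducible form, was below WT in 13 of 16 counted classes with a median ratio of -0.33, and lower by 1.5-fold in 2, Treg (3.48 and 2.28, -0.61) and cycling plasmablasts (3.51 and 2.24, -0.64). With clusters in place of marker gates the ratio in Treg was -0.10. Its level was highest in cycling B cells, cycling T cells and granulocyte precursors, 7.82 in WT and 3.88 in *Postn*-DTR for the first, 5.50 and 4.38 for the second, and 4.75 and 3.62 for the third. The ratio of its UMIs to those of *Hsp90ab1* within a class, which does not depend on the total, was below WT in 14 of 21 classes. The intervals of the libraries were apart in 10 classes, 7 with a lower and 3 with a higher ratio in *Postn*-DTR. B2 B cells had 0.175 (0.169 to 0.182) in WT against 0.141 (0.129 to 0.155) in *Postn*-DTR, and macrophages 0.141 (0.125 to 0.160) against 0.231 (0.199 to 0.268). In these classes the ratio thus differed between the libraries in opposite directions, and the cause was not tested. Of the 31-base windows of the *Hsp90aa1* transcript 62.9% occur in other genes, 67.7% in its first 500 bases and 0.851% in its last 500.

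Of the mitochondrial pair, *Hspe1* (chromosome 1, 55088132 to 55091307, plus strand) was below WT in all 15 counted classes, with a median ratio of -0.51, and over the 22 classes it was above WT in immature neutrophils alone, from 11 and 31 UMIs. It was lower by 1.5-fold in 6 classes. From WT to *Postn*-DTR the level went from 2.89 to 1.19 UMIs per 10000 in B1 B cells (ratio -1.28, -1.50 to -1.15 on sums), from 1.41 to 0.633 in granulocyte precursors (-1.15, -1.35 to -0.82), from 2.98 to 1.39 in NKT cells (-1.10, -1.59 to -0.64), and from 2.04 to 1.06 in ILC2 (-0.95, -1.22 to -0.26). Cycling plasmablasts (-0.91) and B2 B cells (-0.62) were the others, and in B2 B cells 4 alternatives gave ratios from -0.58 to -0.48, short of 1.5-fold. It was nearly level in plasma cells, 0.589 and 0.578 (-0.03, -0.10 to 0.14 on sums). Its highest class was CD8 T cells in both libraries, at 3.81 and 2.68.

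*Hspd1* (chromosome 1, 55077835 to 55088243, minus strand), which starts within the same stretch of DNA, was lower by 1.5-fold in 4 of 15 classes and higher in 1. It was lower in granulocyte precursors (2.46 in WT and 1.44 in *Postn*-DTR, ratio -0.78), cycling plasmablasts (1.13 and 0.717, -0.66), B1 B cells (1.35 and 0.882, -0.61) and naive CD4 T cells (1.23 and 0.719, -0.78), where the ratio on sums was -0.12 (-0.92 to 0.58) from 17 *Postn*-DTR UMIs. The higher class was γδ T cells, with 1.15 in WT and 2.02 in *Postn*-DTR (0.81, 0.40 to 1.14 on sums). It was the only counted pair of the 124 that passed 1.5-fold upward on the means over cells, while 5 pairs did on summed UMIs. With clusters in place of marker gates *Hspd1* in γδ T cells did not pass, at 0.49, nor did B1 B cells pass downward, at -0.47.

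Since both genes are read from the same cells, the number of *Hspe1* UMIs per *Hspd1* UMI compares the partners without the total. It was lower in *Postn*-DTR in 17 of 19 classes, all but DC and cDC1, which held 21 and 15 *Postn*-DTR cells. The intervals of the libraries were apart in 6, always with the lower ratio in *Postn*-DTR. All 19 classes come from the same WT and the same *Postn*-DTR library, so they do not repeat the comparison. No share over all pairs of genes was worked out for this count. In CD8 T cells it was 2.55 (2.28 to 2.85) in the WT library against 1.35 (1.05 to 1.75), in γδ T cells 2.27 (1.98 to 2.62) against 1.01 (0.730 to 1.41), and in NKT cells 1.91 (1.63 to 2.24) against 0.933 (0.598 to 1.45). B1 B cells (2.02 and 1.49), plasma cells (2.04 and 1.61) and monocytes (1.24 and 0.798) were the other 3. Granulocyte precursors had the lowest ratio in either library, 0.568 and 0.458. Of the 31-base windows of the transcripts, 48.1% for *Hspe1* and 55.8% for *Hspd1* occur elsewhere, with 39.6% and 32.1% in the first 500 bases and 68.5% and 1.06% in the last 500, so the absolute ratio depends on how such reads were assigned and on the end that was read.

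**Figure D5:**
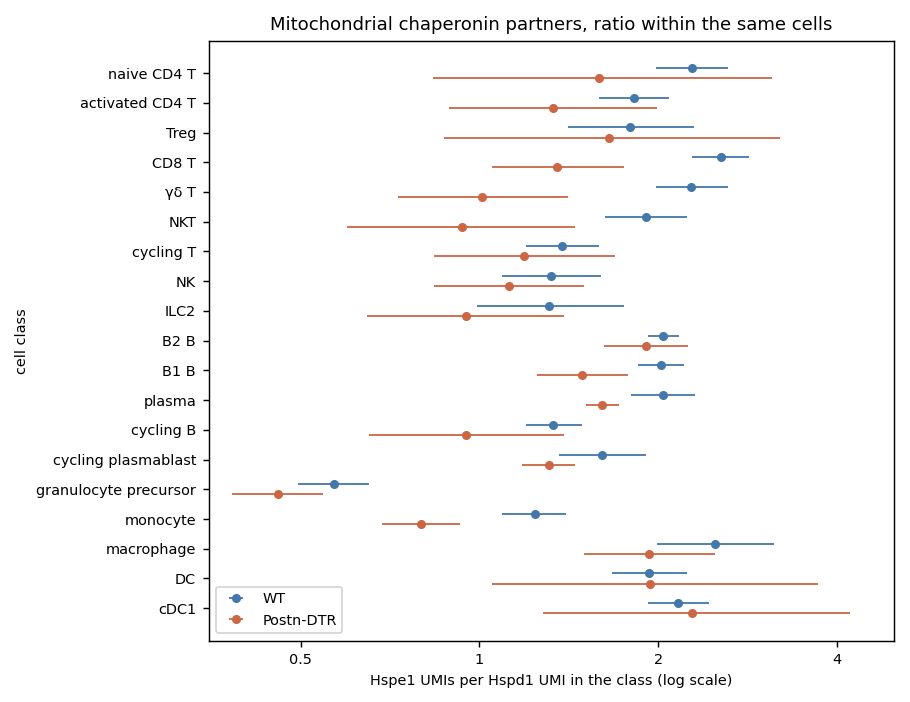
UMIs of *Hspe1* per UMI of *Hspd1* in 19 classes (points, log2 axis) with exact 95% intervals (bars) in WT and *Postn*-DTR. The *Postn*-DTR point lies to the left of the WT point in 17 of 19 classes, with bars that do not meet in 6.

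Over 39 points, each 1 class in 1 library, *Hspe1* and *Hsph1* ordered the classes most alike (Spearman's rho 0.78), followed by *Hsp90aa1* and *Hsp90ab1* (0.76) and *Hsp90ab1* and *Hspe1* (0.70). *Hspa1a* and *Hspa1b* gave 0.67, and *Hspa1a* and *Dnaja1* the lowest value, -0.27. The points share libraries, depth and free RNA, so these are descriptions. The genes most like *Hspa1a* among 12304 ranked were *Slirp* (0.77), *Ptrhd1* (0.77), *Naa38* (0.74), *Mrpl36* (0.74) and *Rab3il1* (0.72). Within cells the correlations were weak: *Hspa8* with *Hsp90ab1* had a median rho of 0.25 over 19 classes in a library on scaled values and 0.11 after thinning to 2000 UMIs, and no cell-level pattern is read from them.

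Other genes of the same pathways were taken from lists drawn up with earlier results of these data known, and they moved in both directions. Of 27 further HSP70 family members, J proteins and exchange factors, 13 of 266 counted pairs were lower and 17 higher (4.89% and 6.39%, below the shares for all genes), with a median of 0.03. *St13*, which encodes the HSP70-interacting protein HIP, was lower in 5 of 13 classes, among them B2 B cells (0.748 and 0.449 UMIs per 10000, ratio -0.74) and monocytes (0.7 and 0.396, -0.82), and *Hspa9*, the mitochondrial HSP70, was higher in 2 of 14, naive CD4 T cells (0.71) and γδ T cells (0.89). The TRiC chaperonin, which folds actin and tubulin, had 6 of 125 pairs lower and 3 higher (4.80% and 2.40%, below the shares for all genes), with a median of 0.02. Of 7 mitochondrial chaperones and proteases, 0 of 61 pairs were lower and 7 higher (11.5%, against 8.48% of all genes), with a median of 0.10, and the 2 *Hspa9* pairs are among these 7. *Hsf1* was lower in 1 of the 10 pairs of the HSF factors (naive CD4 T cells, -0.91, from 4 *Postn*-DTR UMIs) and 0 were higher. Of the 3 counted pairs of small heat shock proteins, *Hspb1* in plasma cells was lower (0.137 and 0.0667, -1.04) and *Hspb6* in the same class was higher (0.0345 and 0.0561, 0.7). Of 94 pairs of ubiquitin and proteasome genes 4 were lower and 2 higher (4.26% and 2.13%, below the shares for all genes).

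Among the HSP90 co-chaperones 18 of 212 pairs were lower and 19 higher (8.49% and 8.96%, near the 10.5% and 8.48% of all genes), with a median of -0.14, and 10 of the 19 were of 1 gene. *Fkbp5*, which encodes an immunophilin of the steroid receptor complex and is known for its response to glucocorticoids, was higher in 10 of 11 counted classes and lower in 0, with a median ratio of 2.30. In macrophages it was at 0.0951 UMIs per 10000 in the WT library and at 2.49 in the other (ratio 4.71), 0.126 and 1.23 in monocytes (3.29), 0.115 and 1.01 in B2 B cells (3.13) and 0.0982 and 0.972 in B1 B cells (3.31), and it was nearly level in granulocyte precursors (0.372 and 0.435, 0.22). *Chordc1*, an HSF1-responsive co-chaperone, was lower in 5 of 13 classes and higher in 0, with a median of -0.41.

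Chaperones of the endoplasmic reticulum differed by class. Over the 17 classes 30 of 193 pairs were lower (15.5%) and 14 higher (7.25%), against 10.5% and 8.48% of all genes, with a median of -0.11. In B2 B cells 7 of 14 were lower (6.52% of all genes there), such as *Sdf2l1* (0.793 and 0.286, ratio -1.47) and the calcium-binding chaperone *Calr* (2.8 and 1.5, -0.9), with a median of -0.59. B1 B cells went the other way, with 6 of 14 higher (6.85% of all genes there), such as *Creld2* (0.379 and 2.29, 2.59) and *Sdf2l1* (0.819 and 1.51, 0.89), beside the immunoglobulin shares given above. In granulocyte precursors 7 of 13 were lower (3.15% of all genes there were lower and 4.90% higher), such as *Hyou1* (1.01 and 0.446, -1.18). Among the 10 genes, *Hsp90ab1*, *Hspe1*, *Hspd1* and *Hsph1* were lower in these B1 B cells, while 0 of the 7 other mitochondrial genes there were lower and 0 higher.

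Immediate early genes, which like *Hspa1a* are known to respond to tissue digestion, were set beside the chaperones. Over the 17 classes 26 of 212 pairs were lower and 42 higher (12.3% and 19.8%, against 10.5% and 8.48% of all genes), with a median of 0.06. In monocytes 3 of 14 were lower and 1 higher (median -0.27), where 15.6% and 5.82% of all genes were, and in macrophages 3 of 14 and 1 (median -0.22), where 16.1% and 10.1% were, so both counts lay near those of all genes, whose median was -0.11 in each class. *Atf3* was at 7.83 UMIs per 10000 in WT macrophages and 4.25 in those of the other library. In B1 B cells 0 of 13 were lower and 8 higher (9.89% and 6.85% of all genes there), with *Fos* at 0.973 and 2.19 and *Egr1* at 0.549 and 1.33, while *Hspa1a* and *Hspa1b* were lower there. In plasma cells 6 of 14 were lower and 1 higher (12.5% and 12.1% of all genes there). The part of cell handling in the lower *Hspa1a* and *Hspa1b* was not tested, since each group is 1 suspension and 1 library, and genotype and library cannot be told apart.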

How the data were processed

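Per the labels, omental cells of WT and *Postn*-DTR mice were captured on the Chromium platform with the 5′ kit. The methods of the study give the 3′ kit instead. The submitters' processing notes name Cell Ranger 6.0.0 and mm10, and the methods name another version of Cell Ranger. The deposited values are on a natural log scale: the authors scaled UMIs to 10000 per cell and took the natural log after adding 1. Tests on counts had been planned, but the files hold natural log values and 1 library per group, so none was run. Back-transformed values were multiples of a step per cell, and dividing by it gave UMIs that were whole within 0.1 for 99.961% of WT and 99.903% of *Postn*-DTR values.

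Cells with 200 to 7500 genes and at most 25% mitochondrial UMIs were kept, as in the study. Classes were set per cell from the number of markers detected, with thresholds set after the cells had been seen. In WT 581 cells and in *Postn*-DTR 389 passed gates of more than 1 lineage, 283 and 254 passed none, and 1044 and 407 had a lineage but no subset, and all of these were left out. Doublets were called with Scrublet (scanpy 1.11.5) at a score above 0.25 in both libraries, since its automatic limit marked almost no WT cell, giving 135 cells (1.56%) and 103 (1.80%), and were removed only in an alternative. Levels are means over cells of UMIs per 10000. Intervals are exact Poisson (sums), Clopper-Pearson (shares) or conditional binomial (ratios), at 95%. The UMI minimum was 100 over both libraries, and cells were thinned to 1000 UMIs (2000 for correlations). The scripts were tested on simulated data. Coordinates and overlaps are from GENCODE on GRCm38, 1-based, and promoters from RefSeq. All 10 genes were named, with, per list, class and direction, up to 2 further genes of largest ratio, and the 5 genes most like *Hspa1a*. The genes and lists were chosen with earlier results of these data known. Python 3.11.15, numpy 2.4.6 and scipy 1.17.1 were used.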

Additional observations from a re-analysis of the deposited data

Results flagged for a closer look

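*Hspd1* went in opposite directions in different classes: the log2 ratio of *Postn*-DTR over WT was 0.81 in γδ T cells, where it was higher, and -0.78 in granulocyte precursors, where it was lower. Each class is 1 library against 1 library, so the difference between the classes was not tested. The direction in γδ T cells was the same under the 8 alternatives that counted it, with ratios from 0.49 to 0.85, while thinning left it under the UMI minimum, and the ratio fell short of 1.5-fold when clusters replaced the marker gates. In granulocyte precursors the ratios ran from -1.25 to -0.77, past 1.5-fold under each of the 8 that counted it there.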

How the results depend on the processing

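No paired analysis was possible because each group is 1 library. Of 124 counted pairs, 31 were lower and 1 higher. With summed UMIs 30 were lower and 5 higher (10.1% and 7.66% of all genes). Thinning to 1000 UMIs left 62 pairs, of which 9 were lower and 4 higher (14.5% and 6.45%, against 10.6% and 10.0% of all genes), and 7 of these 62 had been called without thinning. With clusters in place of marker gates 37 of 135 were lower and 0 higher (27.4% and 0%, against 14.3% and 8.90% of all genes). A minimum of 30 UMIs gave 42 of 143 and 4 (29.4% and 2.80%, against 15.2% and 12.7%). A fold of 2 gave 11 and 0 (3.02% and 2.58% of all genes). Leaving out the top cell of each gene gave 30 of 123 and 2. Limits of 500 genes or 10% mitochondrial UMIs, removal of doublets and removal of shared barcodes (chosen after seeing the data) each left 31 and 1. None of the 32 called pairs changed sign under an alternative that counted it, and 19 of them stayed past 1.5-fold in all of those. The *Dnaja1* level in ILC2 over the median of the other classes was 6.16 in WT, and 5.10 with summed UMIs, 5.49 after thinning and 5.63 with clusters. In *Postn*-DTR it was 5.21, and 6.47 with totals without immunoglobulin, T cell receptor, mitochondrial and ribosomal protein genes. Apart from construction (fewer UMIs, cells or a higher fold), the causes were not tested.

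Counts under 100 UMIs were too few to call 46 of 170 pairs, and 5 classes had too few *Postn*-DTR cells to compare. Pools of 3 mice hide the spread between mice.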
